A study of Mus musculus with 8 samples.

Results

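The regions described here were autosomal stretches of chromatin that carried a top-ranked ATAC-seq peak in both LSK+ XistΔ/Δ libraries, in neither LSK+ WT library and in both LSK- WT libraries. Of 52052 autosomal regions, 356 had this pattern. LSK+ cells are the lineage-negative, SCA-1+ c-Kit+ bone marrow cells that include the hematopoietic stem cells, and LSK- cells are the lineage-negative, SCA-1- c-Kit+ progenitors that arise from them. ATAC-seq marks open chromatin by the insertion of a transposase, and a peak is a place where sequenced fragments pile up above the local background. The regions were selected on the ranks of these peaks in 6 of the 8 libraries, so their ranks in those 6 libraries describe the selection and support nothing further. No rank was required in the 2 LSK- XistΔ/Δ libraries, and the DNA sequence and the distance to genes were not used. Top peaks of all 8 libraries were merged, however, so the LSK- XistΔ/Δ libraries helped to set the bounds and summits of the regions. Leaving either of them out gave 355 regions.

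The 8 libraries came from female mice of 4.5 months on a 129Sv4/Jae x B6 background, with 2 libraries for each of LSK+ WT, LSK+ XistΔ/Δ, LSK- WT and LSK- XistΔ/Δ. In XistΔ/Δ mice a floxed Xist gene was removed by an iCre transgene under the Vav1 promoter, which is active across the blood system. About 10000 sorted cells entered each reaction, and the labels do not say whether cells of several mice were pooled. With 2 libraries a side, an exact two-sided permutation test cannot go below p = 0.333, so no p-value is given and each result below is a description of these libraries.

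Progenitors of the LSK- gate are a mixture. GATA1 and GATA2 act in erythroid, megakaryocyte and mast cell precursors, whereas PU.1 and the C/EBP factors act in precursors of granulocytes and monocytes, and RUNX1 acts across most of these lineages. Each factor recognises a short DNA word, and regions opened in a given lineage often hold the word of its factors.

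The libraries differed in depth and in the length of their peak lists. The lists held between 29829 and 91590 peaks on the autosomes and the X chromosome, and the background pileup ran from 0.482 to 3.87 fragments. LSK+ WT replicate 2 was lowest and LSK- XistΔ/Δ replicate 1 was highest in both measures. To compare like with like, the 29829 strongest peaks of each list were called top peaks, which is the entire list of LSK+ WT replicate 2 but 32.6% to 79.4% of the other lists. Promoter peaks of marker genes separated the gates only in part. Epor, Gfi1b and Cebpe, 3 of 7 LSK- markers, ranked higher in both LSK- WT than in both LSK+ WT libraries. Within each replicate number Mpo did so too, but Klf1, also an LSK- marker, ranked higher in LSK+ WT (6217 and 2994 against 15277 and 4383). Of 6 LSK+ markers, only Meis1 ranked higher in both LSK+ WT than in both LSK- WT libraries. Flt3 did so within each replicate number only (11853 and 2945 against 31253 and 3969). Ly6a, which encodes SCA-1, had no top promoter peak in any library, and the promoters of Cd3e, Ncr1 and Ly6g, markers of T cells, natural killer cells and granulocytes, had no peak at all.

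Windows of 240 bp around the strongest point of 8 of the regions are printed here because they show the words on which the comparison with other progenitor regions turns. The sequence is the RefSeq copy of the GRCm38.p6 (mm10) reference. Capitals mark GATA words (AGATAA or TGATAA), PU.1 words (AGAGGAAGT, GAGGAAGT or GGGGAAGT), C/EBP words (TTGCNNAA) and RUNX words (TGTGGT), on either strand. AL805899.2 was the highest-ranked of the regions, and the others lie at genes of blood lineages or of immune signalling.
AL805899.2, chr4:89044071-89044310, plus strand: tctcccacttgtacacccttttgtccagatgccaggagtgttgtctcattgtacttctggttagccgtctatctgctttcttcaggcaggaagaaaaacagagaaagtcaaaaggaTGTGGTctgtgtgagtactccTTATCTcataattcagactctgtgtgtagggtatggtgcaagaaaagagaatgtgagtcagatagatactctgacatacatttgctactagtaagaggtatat
Zfpm1, chr8:122294249-122294488, plus strand: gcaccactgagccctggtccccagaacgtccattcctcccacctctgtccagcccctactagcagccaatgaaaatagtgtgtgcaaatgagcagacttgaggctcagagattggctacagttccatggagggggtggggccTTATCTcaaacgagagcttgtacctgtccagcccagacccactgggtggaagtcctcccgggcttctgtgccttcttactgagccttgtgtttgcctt
Clec4d, chr6:123267001-123267240, plus strand: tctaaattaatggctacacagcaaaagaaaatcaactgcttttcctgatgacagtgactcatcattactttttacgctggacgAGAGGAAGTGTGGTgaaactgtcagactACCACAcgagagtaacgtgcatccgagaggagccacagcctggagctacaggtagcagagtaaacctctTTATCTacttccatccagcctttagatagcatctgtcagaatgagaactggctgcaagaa
Cd33, chr7:43544627-43544866, plus strand: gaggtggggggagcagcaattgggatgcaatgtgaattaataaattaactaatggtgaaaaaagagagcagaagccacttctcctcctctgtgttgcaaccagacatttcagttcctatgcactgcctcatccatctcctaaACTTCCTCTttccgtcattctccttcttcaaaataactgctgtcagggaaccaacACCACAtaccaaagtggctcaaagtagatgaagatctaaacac
Inpp5d, chr1:87626450-87626689, plus strand: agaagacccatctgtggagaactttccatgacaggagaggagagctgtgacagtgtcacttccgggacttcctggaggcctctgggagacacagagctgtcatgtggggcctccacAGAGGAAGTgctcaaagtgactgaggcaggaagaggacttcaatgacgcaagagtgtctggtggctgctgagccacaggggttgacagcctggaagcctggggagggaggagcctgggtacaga
Hdc, chr2:126602237-126602476, plus strand: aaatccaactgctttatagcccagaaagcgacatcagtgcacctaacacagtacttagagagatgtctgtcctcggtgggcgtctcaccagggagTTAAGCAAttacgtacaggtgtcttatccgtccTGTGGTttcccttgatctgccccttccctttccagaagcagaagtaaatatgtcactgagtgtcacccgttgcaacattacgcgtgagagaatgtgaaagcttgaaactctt
Mitf, chr6:97995816-97996055, plus strand: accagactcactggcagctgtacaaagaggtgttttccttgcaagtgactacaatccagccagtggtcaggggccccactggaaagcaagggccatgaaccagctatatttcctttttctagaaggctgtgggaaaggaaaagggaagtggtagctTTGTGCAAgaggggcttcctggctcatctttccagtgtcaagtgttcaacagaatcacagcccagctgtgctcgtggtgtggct
Gzmb, chr14:56262247-56262486, plus strand: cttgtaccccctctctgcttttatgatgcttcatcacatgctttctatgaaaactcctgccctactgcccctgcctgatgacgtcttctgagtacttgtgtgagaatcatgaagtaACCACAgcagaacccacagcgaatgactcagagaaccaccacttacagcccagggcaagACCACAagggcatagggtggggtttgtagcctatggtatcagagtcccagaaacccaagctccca

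The words differ from one region to the next. The intronic window of Zfpm1, which encodes the GATA cofactor FOG1, held 1 GATA word and none of the other 3 kinds. The window in an exon of Clec4d, a C-type lectin receptor of myeloid cells, held 1 GATA word, 1 PU.1 word and 2 RUNX words. At Cd33, an inhibitory receptor of myeloid cells, and at Inpp5d, which encodes the phosphatase SHIP1, the window held 1 PU.1 word and no GATA word. At Hdc and Mitf the window held 1 C/EBP word, and the promoter window of Gzmb held 2 RUNX words.

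Across the regions, GATA words were less frequent and PU.1 words more frequent than in the rest of the LSK- specific chromatin. LSK- specific WT regions, with a top peak in both LSK- WT libraries and in neither LSK+ WT library, numbered 3894, or 7.48% of autosomal regions, and the 356 regions were 9.14% of them (95% Wilson interval 8.28% to 10.1%). In windows of 300 bp, a GATA word was found in 116 of the 356 regions, or 32.6% (27.9% to 37.6%), against 71.3% (69.7% to 72.7%) of the other 3538 LSK- specific WT regions and 27.6% of all autosomal regions. A PU.1 word was found in 80 of the 356, or 22.5% (18.4% to 27.1%), against 7.69% (6.86% to 8.61%) of the other LSK- specific WT regions and 11.5% of all autosomal regions. The other 636 LSK+ regions gained in XistΔ/Δ, without a top peak in both LSK- WT libraries, held a GATA word in 21.1% (18.1% to 24.4%) and a PU.1 word in 17.9% (15.1% to 21.1%). Their GATA interval lay below that of the 356 regions, and their PU.1 interval overlapped it. LSK+ specific WT regions, in both LSK+ WT and neither LSK- WT library, had shares of 18.5% and 14.1%. The reverse pattern, in both LSK+ WT, neither LSK+ XistΔ/Δ and both LSK- WT libraries, had 48.6% and 2.86%. By the rule, the other LSK- specific WT regions are those without top peaks in both LSK+ XistΔ/Δ libraries. How far this split sets the contrast was not tested. These intervals cover counting error over regions only, and neighbouring regions share their libraries. A word is a match of letters and not a bound site.

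The other words differed by fewer percentage points. C/EBP words were found in 21.3% of the 356 regions (17.4% to 25.9%), against 14.2% of the other LSK- specific WT regions and 12.9% of all autosomal regions. RUNX words were found in 44.4%, 37.1% and 29.9% of these sets. IRF words (GAAANNGAA) were found in 14.0%, 8.17% and 10.0%, and CTCF words (CCACNAGG) in 10.7%, 6.56% and 9.07%. Shares for the TAL1 E-box (CAGATG) were 29.8%, 28.1% and 21.8%, those for AP-1 (TGANTCA) were 13.8%, 10.7% and 10.6%, and those for KLF (CCACACCC) were 7.02%, 7.29% and 4.07%. MYB words (AACNGTT) were found in 5.90%, 8.39% and 5.39%, and YY1 words (AAGATGGCG) in 0.843%, 0.0848% and 0.972%. For YY1 the interval of the 356 regions (0.287% to 2.45%) lay above that of the other LSK- specific WT regions (0.0288% to 0.249%), on 3 regions in each set. For TAL1, AP-1, KLF, MYB, CTCF and YY1, the interval of the 356 regions overlapped that of the other LSK- specific WT regions or that of all autosomal regions.

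**Figure D1:**
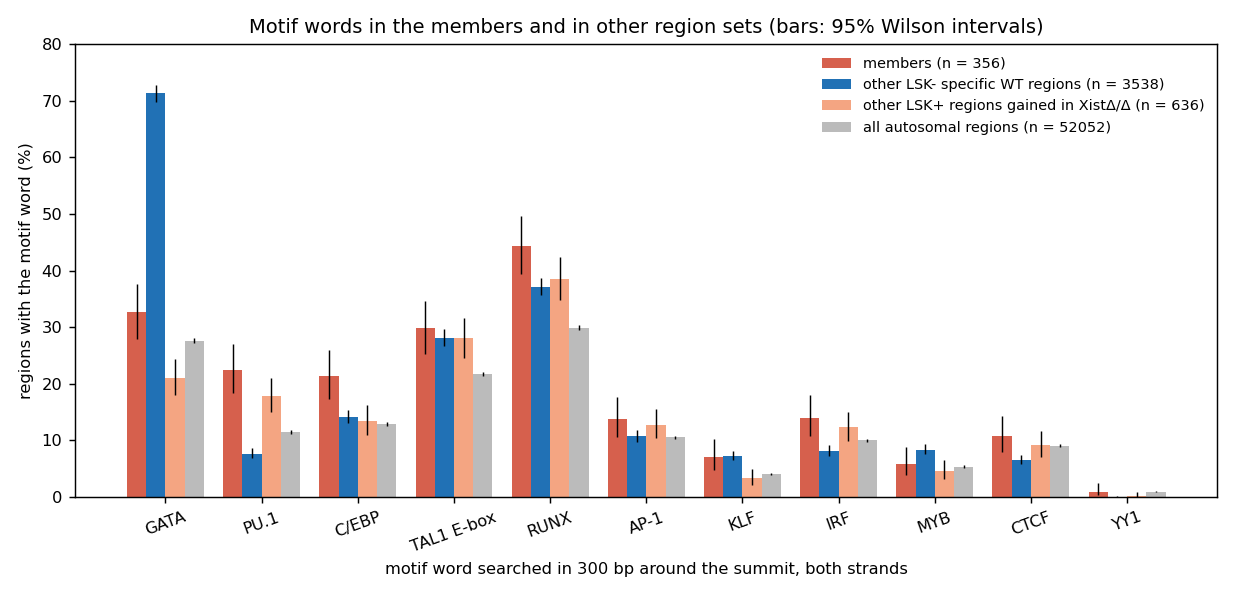
Share of regions (%) with each word in 300 bp around the summit, for the 356 regions (members), the other LSK- specific WT regions, the other LSK+ regions gained in XistΔ/Δ and all autosomal regions, with 95% Wilson intervals as black bars. The GATA bar stands at 32.6% in the members and 71.3% in the other LSK- specific WT regions, and the PU.1 bar at 22.5% and 7.69%.

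Taken by pairs of words, 97 of the 356 regions, or 27.2%, held a PU.1 or C/EBP word without a GATA word, against 8.20% of the other LSK- specific WT regions. A GATA word without either of the others was found in 19.9% of the 356 and in 58.9% of the other LSK- specific WT regions. Over all autosomal regions these shares were 16.4% and 21.2%, so the 19.9% was near the share of all regions. The 356 regions and the other LSK- specific WT regions were alike in base composition, with a median GC content of 49.0% and 48.3%. They also had similar TSS-proximal shares, and within TSS-distal regions alone the GATA shares were 33.3% and 72.1% and the PU.1 shares 22.5% and 7.71%. All TSS-distal autosomal regions held a GATA word in 34.4% and a PU.1 word in 13.8%. Away from start sites, the GATA share of the 356 regions was thus near that of all regions.

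The GATA share was lower where an LSK+ XistΔ/Δ library held a top peak. Among LSK- specific WT regions, 78.5% of the 2930 with a top peak in neither LSK+ XistΔ/Δ library held a GATA word, against 36.3% of the 608 with a top peak in 1 of them and 32.6% of the 356 with both. PU.1 shares in the same order were 5.84%, 16.6% and 22.5%. Between 1 library and both, the GATA intervals overlapped (32.6% to 40.2% and 27.9% to 37.6%). The PU.1 intervals did so too (13.9% to 19.8% and 18.4% to 27.1%). Of the other LSK- specific WT regions, those with no peak of any rank in LSK+ WT replicate 1 held a GATA word in 79.0% of cases, and those with a weaker peak there in 56.2%. Within the 356 regions this order was not seen, with a GATA word in 25.0% (14.9% to 38.8%) of the 48 with no LSK+ WT peak and 33.8% (28.7% to 39.2%) of the 308 with a weaker one, and these intervals overlap. A narrower band took regions with a peak in LSK+ WT replicate 1 ranked within 1.5 times the number of top peaks. In it, GATA words were found in 32.6% of 291 of the 356 regions (27.5% to 38.2%). They were found in 46.8% of 632 other LSK- specific WT regions (43.0% to 50.7%). PU.1 words were found in 24.4% (19.8% to 29.6%) and 13.8% (11.3% to 16.7%) of these sets. The gap in GATA words was thus smaller in this band than over all regions, while the intervals stayed apart for both words. Ranks inside the band were not matched between the sets, nor were ranks in LSK+ XistΔ/Δ.

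**Figure D2:**
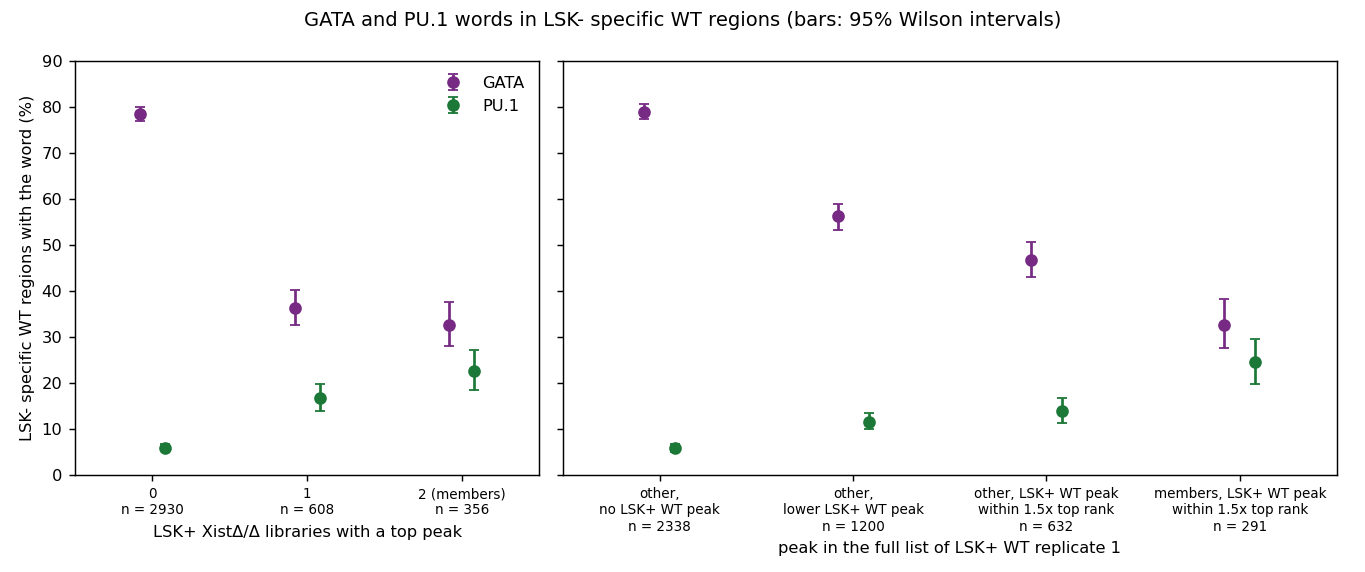
Share of LSK- specific WT regions (%) with a GATA or PU.1 word, by the number of LSK+ XistΔ/Δ libraries with a top peak (left) and by the peak in LSK+ WT replicate 1 (right), with 95% Wilson intervals. GATA shares go from 78.5% to 36.3% and 32.6% on the left. The right panel shows 46.8% for other regions against 32.6% for members, with a peak ranked within 1.5 times the number of top peaks.

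The 356 regions held few of the strongest peaks, and most had a weaker peak in LSK+ WT replicate 1. Rank 1 is the strongest peak of a list. In LSK+ XistΔ/Δ replicates 1 and 2 their median ranks were 23551 and 21403, and no region ranked better than 9307 or 9288. In LSK- WT replicates 1 and 2 their median ranks were 17595 and 18266, and the best ranks were 1345 and 5295. As percentiles of the full lists, where 100 is the strongest peak, the medians were 71.4 and 66.1 in LSK+ XistΔ/Δ and 75.3 and 51.4 in LSK- WT, where a longer list raises the percentile of a given rank. Regions among the 5000 strongest peaks numbered 11 in LSK- WT replicate 1 and 0 in either LSK+ XistΔ/Δ library. Since cells were measured in bulk, a larger share of cells with a region open and a wider opening in each cell cannot be told apart.

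Of the 356 regions, 308, or 86.5%, had a weaker peak in the full list of LSK+ WT replicate 1, with a median rank of 34696 and a median of 22.0 fragments at the summit. Of these, 291 ranked within 1.5 times the number of top peaks. In LSK+ WT replicate 2 none had a peak, but its list ends at rank 29829, so a weaker peak could not be listed there. Only 48 regions had no peak of any rank in either LSK+ WT library. Most of the regions were thus already listed as open in an LSK+ WT library below the rank used here, and the description newly open could hold for the 48 at most. At the edge of the selection, a region at Btbd18 entered with rank 29834 in LSK+ WT replicate 1, and a region at Nt5e stayed out with rank 29829. Among the required libraries, a region at Mir21c entered with a worst rank of 29819, and a region at Rps12-ps24 stayed out with 29839.

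**Figure D3:**
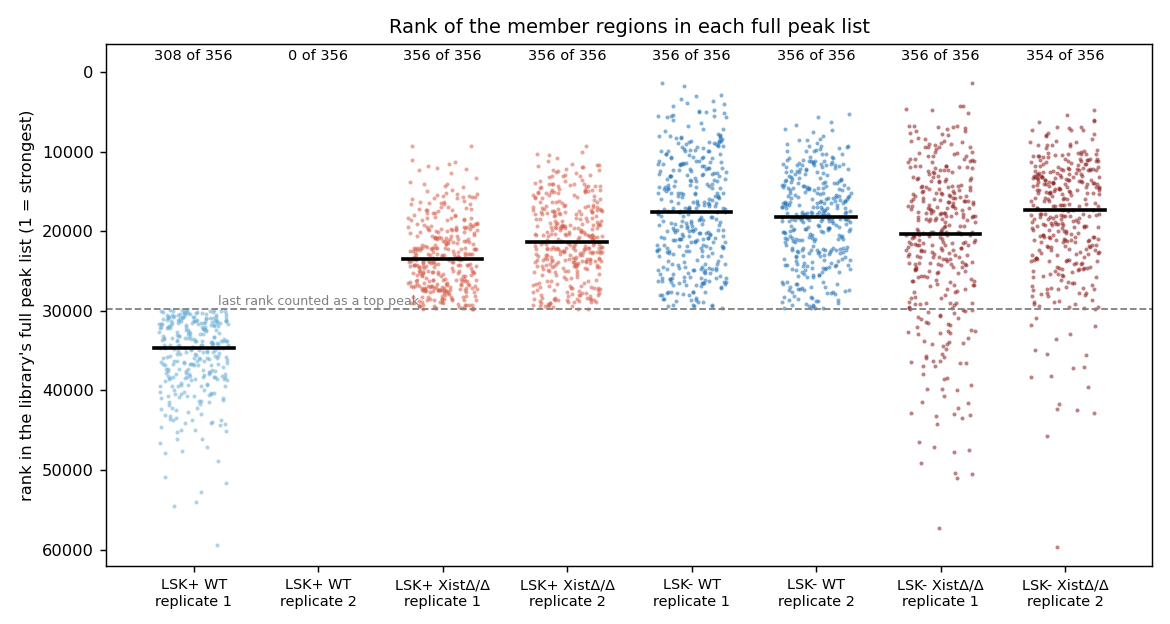
Rank of each of the 356 regions (points) in the full peak list of each library, with the median as a black line, the number of regions with a peak above each column and the last top rank as a dashed line. In LSK+ WT replicate 1 the 308 regions with a peak start just under the line. LSK- XistΔ/Δ replicate 1, where the selection required no rank, reaches from 1392 to 57271.

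The number of regions had to be read against the size of the sets they came from. LSK+ regions gained in XistΔ/Δ, with a top peak in both XistΔ/Δ and no WT library, numbered 992, or 1.91% of autosomal regions, and 35.9% of them (33.0% to 38.9%) were the 356 regions. Over all autosomal regions, 42.3% had a top peak in both LSK- WT libraries. That set includes regions with a top peak in LSK+ WT, which gained regions lack by the rule. These shares are thus not like for like, and no direction is read from them. LSK+ regions lost in XistΔ/Δ numbered 692, or 1.33% of autosomal regions, and 70 of them, or 10.1% (8.08% to 12.6%), had a top peak in both LSK- WT libraries. These 70 form the reverse pattern. The excess of 356 over 70 rested on LSK+ XistΔ/Δ replicate 2, since without it the numbers were 485 and 469. Without LSK+ XistΔ/Δ replicate 1 they were 835 and 294, without LSK+ WT replicate 1 they were 1740 and 257, and without LSK+ WT replicate 2 they were 603 and 191. On the X chromosome 2 regions had the pattern and 2 had its reverse.

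The selection required no rank in the LSK- XistΔ/Δ libraries, although their peaks helped to set the bounds of the regions. A top peak was found in both of them for 280 of the 356 regions, or 78.7% (74.1% to 82.6%), in 1 of them for 64 and in neither for 12. The same held for 57.5% (55.8% to 59.1%) of the other LSK- specific WT regions, for 52.9% (41.3% to 64.1%) of the reverse pattern and for 85.1% of all regions with a top peak in both LSK- WT libraries. The libraries went opposite ways here. In replicate 1 the 356 regions stood below the other LSK- specific WT regions, with 81.2% against 88.5%, and in replicate 2 they stood above them, with 94.1% against 64.2%. Over all regions with a top peak in both LSK- WT libraries the shares were 92.9% and 89.7%. The higher share of the 356 regions in both libraries thus came from replicate 2 alone. By the study's list of runs, the replicate 1 libraries and the replicate 2 libraries were sequenced on different platforms, and the part of the platform in the result was not tested.

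Median ranks of the regions were 20397 and 17403 in LSK- XistΔ/Δ replicates 1 and 2. They are not compared with LSK- WT, where the selection kept each region inside the top peaks. Regions with a GATA word had a top peak in both LSK- XistΔ/Δ libraries in 84.5% of 116 cases, against 75.8% of the 240 without one. For a PU.1 word the shares were 73.8% of 80 with it and 80.1% of 276 without. Some regions held both words, and these differences were not tested.

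**Figure D4:**
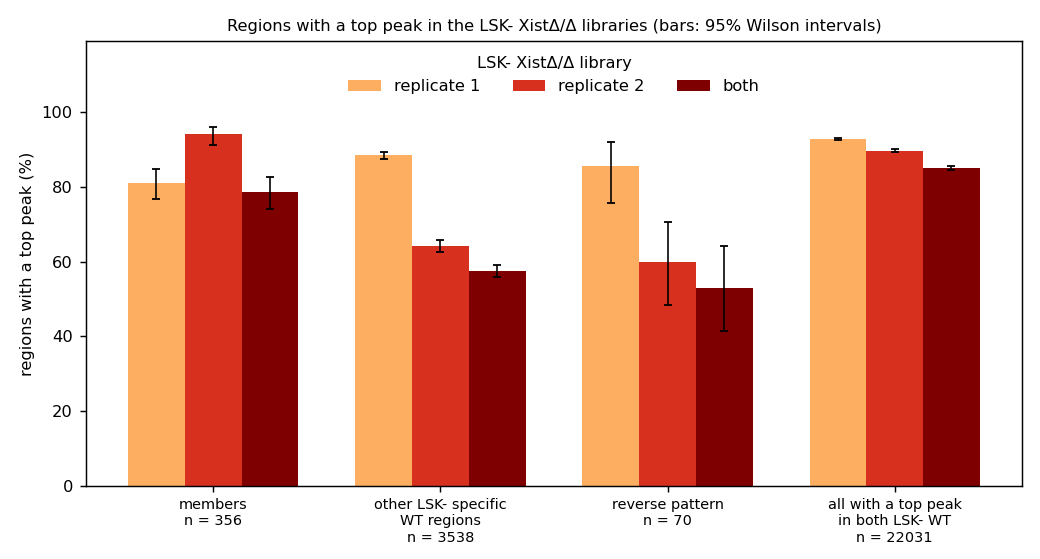
Share of regions (%) with a top peak in LSK- XistΔ/Δ replicate 1, replicate 2 and both, for the 356 regions (members), the other LSK- specific WT regions, the reverse pattern and all regions with a top peak in both LSK- WT libraries, with 95% Wilson intervals. Members reach 94.1% in replicate 2 against 64.2% for the other LSK- specific WT regions, and the order is turned in replicate 1.

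The 356 regions lay mostly away from promoters and were spread over all 19 autosomes. TSS-proximal regions, within 3 kb of a transcription start site, made up 19.9% (16.1% to 24.4%), against 17.1% of the other LSK- specific WT regions and 36.3% of all autosomal regions. The summit lay in an intron of the assigned gene in 179 regions, in an exon in 16 and outside the gene body in 161. The regions had a median width of 573 bp and were assigned to 351 genes, of which 5 had 2 regions and none had more. These 5 were Mctp2, Col15a1, Tango6, Tex35 and Fgfr2, and both regions of Fgfr2 lay 694817 bp or more from its nearest start site within a long annotated gene body.

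Few of the regions lay at genes of the lineage lists. A gene of the erythroid list was assigned to 1 of 356 regions, Zfpm1, or 0.281%, against 34 of 3538, or 0.961%, of the other LSK- specific WT regions and 0.304% of all autosomal regions. The share at erythroid genes was near that of all regions. None was assigned to the granulocyte and monocyte list or the lymphoid list, against 0.225% and 0.227% of all autosomal regions. The megakaryocyte list had 3 regions, at Itga2, Rab27b and Zfpm1, or 0.843% against 0.229% of all. The mast cell, basophil and eosinophil list had 4, at Hdc, Mitf, Siglecf and Gzmb, or 1.12% against 0.104% of all and 0.113% of the other LSK- specific WT regions. The stem cell list had 1, at Angpt1. Counts this low move with the settings, and under ranking by fold enrichment the mast cell list had 0.

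Beyond the lineages, Il1r1 and Cxcr4 were the 2 regions of the cytokine signalling list, and Rb1, Irf2 and Siglech were the single regions of the cell cycle, interferon response and mature blood cell lists. With assignment by the closest start site at any distance, the cell cycle list had 0. The list of blood transcription factors had Zfpm1 alone, and the list of stromal and endothelial genes had none. Within 50 kb of a start site, the erythroid list gained a second region, which also lay at Zfpm1, at a distance of 8801 bp. By the same measure a region lay 1802 bp from Il6ra, the interleukin 6 receptor, 36360 bp from Lcn2, a granule protein of neutrophils, and 48080 bp from Runx1.

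The mast cell, basophil and eosinophil genes had middling ranks in each library. Hdc, which encodes the enzyme that makes histamine, had its region in an intron 16321 bp from the start site (chr2:126601992-126602706). It ranked 36526 in LSK+ WT replicate 1, 26095 and 27001 in LSK+ XistΔ/Δ, 19231 and 23234 in LSK- WT, then 20081 and 20520 in LSK- XistΔ/Δ. The LSK- libraries thus ranked it above both LSK+ XistΔ/Δ libraries. Mitf encodes a transcription factor of mast cells and melanocytes, and its intronic region (chr6:97995657-97996341) ranked 35044 in LSK+ WT replicate 1, 25585 and 21008 in LSK+ XistΔ/Δ, and 20817 and 27773 in LSK- WT. In LSK- XistΔ/Δ replicate 1 it fell outside the top peaks at 31031, and in replicate 2 it ranked 22894. Siglecf encodes a receptor of eosinophils, and its region (chr7:43353163-43353601) ranked 37562 in LSK+ WT replicate 1, 18482 and 21437 in LSK+ XistΔ/Δ, 20179 and 17823 in LSK- WT, then 20004 and 15548 in LSK- XistΔ/Δ. The LSK+ XistΔ/Δ and LSK- ranks overlapped here. Gzmb encodes the protease granzyme B, and its region lay 107 bp from the start site (chr14:56262059-56262563). It ranked 33521 in LSK+ WT replicate 1, 24234 and 22053 in LSK+ XistΔ/Δ, and 26547 and 23083 in LSK- WT. The LSK- XistΔ/Δ libraries disagreed on it, with 47054 and 18869.

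The megakaryocyte and stem cell genes were more varied. Itga2, a collagen receptor subunit of platelets, had an intronic region (chr13:114915792-114916055) that ranked 32818 in LSK+ WT replicate 1, 24610 and 19323 in LSK+ XistΔ/Δ, 8799 and 9626 in LSK- WT, then 8270 and 7266 in LSK- XistΔ/Δ. All 4 LSK- libraries ranked it far above the LSK+ XistΔ/Δ libraries. Zfpm1 (chr8:122294070-122294596) was near the edge in several libraries, with 36130 in LSK+ WT replicate 1, 29705 and 17618 in LSK+ XistΔ/Δ, 28380 and 18446 in LSK- WT, then 24291 and 29666 in LSK- XistΔ/Δ. Angpt1 encodes a ligand of the TIE2 receptor of stem cells, and its intronic region (chr15:42585295-42585885) lay 91550 bp from the nearest start site of the gene. It ranked 40296 in LSK+ WT replicate 1, 22231 and 26988 in LSK+ XistΔ/Δ, 29295 and 27559 in LSK- WT, then 31579 and 26543 in LSK- XistΔ/Δ. Its best rank was thus in an LSK+ XistΔ/Δ library and not in an LSK- library. Rab27b, which encodes a small GTPase of platelet granule release, had no peak in either LSK+ WT library, and ranked 23499 and 28000 in LSK+ XistΔ/Δ and between 12481 and 16473 in the LSK- libraries.

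The 20 regions with the highest lowest percentile over the 4 libraries that had to hold them were led by AL805899.2, a region outside the gene body (chr4:89043884-89044463). It ranked 35361 in LSK+ WT replicate 1, 12168 and 12897 in LSK+ XistΔ/Δ, 1767 and 6609 in LSK- WT, then 1392 and 7290 in LSK- XistΔ/Δ. Gm12264 came next and had no peak in either LSK+ WT library. It ranked 11006 and 9288 in LSK+ XistΔ/Δ and 7892 and 8042 in LSK- WT. Then followed Gm11692, Gm37584, Gm40153, Tnf, B9d2, Inpp5d, Gm29340, Gfod1, Gm42809, Anp32a, Gm48651, AC154766.4, Lrrc72, Syne3, 4921511C10Rik, Gm8419, Itga2 and Tbc1d2. Of these 20 regions, 12 held a RUNX word, 8 a PU.1 word and 3 a GATA word. Over the 356 regions the shares were 44.4%, 22.5% and 32.6%. The 20 were picked by ranks that the rule used. Syne3 alone of the 20 lacked a top peak in an LSK- XistΔ/Δ library, with rank 32365 in replicate 1.

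Some of the assigned genes act in innate immunity. The 29 genes in this and the next paragraph were picked by name after their values were seen, some of them from the lists above, so their number supports nothing. Tnf, the cytokine tumour necrosis factor, had a region in an intron (chr17:35200441-35200946) with no peak in either LSK+ WT library. It ranked 21842 and 12421 in LSK+ XistΔ/Δ, 14719 and 8598 in LSK- WT, then 26756 and 11211 in LSK- XistΔ/Δ. Tnfrsf1b, a receptor of this cytokine, had a region in an exon that ranked 38345 in LSK+ WT replicate 1, 26909 and 23915 in LSK+ XistΔ/Δ, and between 14102 and 18225 in the LSK- libraries. Il1r1, the signalling receptor of interleukin 1, had an intronic region (chr1:40230091-40230793) that ranked 31278 in LSK+ WT replicate 1, 23675 and 19947 in LSK+ XistΔ/Δ, and between 6891 and 12754 in the LSK- libraries. In both receptors all 4 LSK- libraries stood above the LSK+ XistΔ/Δ libraries. The region 319 bp from the start site of Cd33 (chr7:43544353-43545026) ranked 32142 in LSK+ WT replicate 1, 23824 and 12968 in LSK+ XistΔ/Δ, 15184 and 23217 in LSK- WT, then 23128 and 21329 in LSK- XistΔ/Δ, so the groups other than LSK+ WT overlapped. Clec4d (chr6:123266959-123267459) ranked 50859 in LSK+ WT replicate 1, 28289 and 16998 in LSK+ XistΔ/Δ, and 26165 and 26654 in LSK- WT. Regions were also assigned to Siglece, Clec4a1, Naip2, Ccr1, Cxcr4, Cd302 and Cd44, and those of Naip2 and Clec4a1 lay 56 bp and 224 bp from the start site.

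Signalling enzymes and nuclear regulators made up the rest. At Inpp5d (chr1:87626393-87626755) there was no peak in either LSK+ WT library, and the intronic region ranked 22181 and 13537 in LSK+ XistΔ/Δ, 18455 and 8986 in LSK- WT, then 18859 and 7066 in LSK- XistΔ/Δ. Csk encodes the inhibitory kinase of the Src family, and its region ranked 30315 in LSK+ WT replicate 1, just past the last top rank, and 24486 and 22156 in LSK+ XistΔ/Δ. Cblb, Ptk2b, Mapkapk2, Map3k14, Ptprj, Pla2g4a and Tbxas1 were the other enzymes. Tet2, which encodes a dioxygenase that removes DNA methylation, had a region outside its gene body, 80904 bp from its nearest start site. It ranked 30413 in LSK+ WT replicate 1, 28160 and 19092 in LSK+ XistΔ/Δ, 9900 and 22768 in LSK- WT, then 20432 and 15795 in LSK- XistΔ/Δ. At Rb1, the retinoblastoma gene, the region lay in an intron 103094 bp from the nearest start site of the gene. The closest start site, of another gene, was 15167 bp away. There was no peak in either LSK+ WT library, and the region ranked 20587 and 20434 in LSK+ XistΔ/Δ and between 11779 and 19456 in the LSK- libraries. Irf2, Mitf, Zfpm1, Tcf7l2, Klf13 and Dicer1 were the other regulators.

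**Figure D5:**
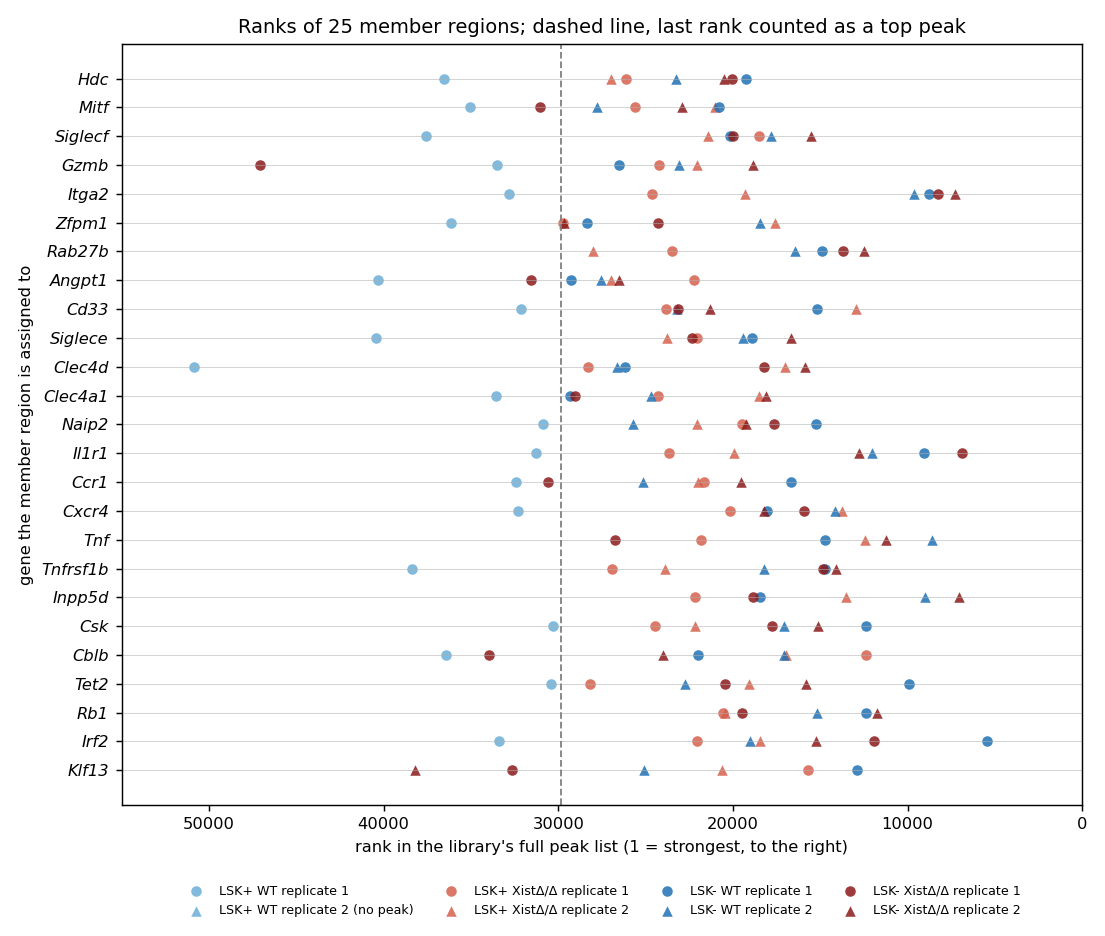
Ranks of named regions in the full peak list of each library, 1 row for each assigned gene, with circles for replicate 1, triangles for replicate 2 and the last top rank as a dashed line. LSK+ WT replicate 1 lies to the left of the line by the rule, LSK+ WT replicate 2 has no peak at any of them, and Itga2 and Il1r1 have all 4 LSK- libraries to the right of both LSK+ XistΔ/Δ libraries.

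Promoters of LSK- markers were also read outside the regions. The promoter of Mpo, the myeloperoxidase gene of granulocyte and monocyte precursors, ranked 48582 and 20928 in LSK+ WT replicates 1 and 2 against 28090 and 18778 in LSK+ XistΔ/Δ. That of Epor, the erythropoietin receptor, ranked 15453 and 19103 in LSK+ WT against 26005 and 9249 in LSK+ XistΔ/Δ. Within each replicate number, Mpo ranked higher in LSK+ XistΔ/Δ. Epor ranked lower in LSK+ XistΔ/Δ in replicate 1 and higher in replicate 2. Taken across replicates, the ranks of the genotypes overlapped in both genes. Elane, the neutrophil elastase gene, ranked 42499 in LSK+ WT replicate 1 against 38859 and 38588 in LSK+ XistΔ/Δ, and peaks of such a rank could not be listed in LSK+ WT replicate 2. Klf1 ranked lower in LSK+ XistΔ/Δ within each replicate number, with 6217 and 2994 in LSK+ WT against 7331 and 3373. Cebpe ranked 26377 and 23752 against 26085 and 25211. Gfi1b ranked 26819 in LSK+ WT replicate 1, with no peak in replicate 2, against 31986 and 21416. Ms4a2 had no promoter peak in any LSK+ library. The part of LSK- type cells inside the LSK+ gate in the result was not tested.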

How the data were processed

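ATAC-seq was deposited as 1 peak list for each of 8 libraries. Per the labels and the study's methods, the authors trimmed reads with Trim Galore, aligned them to mm10 with Bowtie2 2.3.5.1, removed mitochondrial reads and those of mapping quality under 30 with SAMtools 1.10, and called peaks in each library with MACS2 2.2.7.1 at q 0.01. The deposited columns hold a score, a fold enrichment ratio, a −log10 p-value, a −log10 q-value and the summit offset, each relative to the local background of the same library. DiffBind results of the authors were not used here, and read counts were not analysed here.

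Peaks of each list on chromosomes 1 to 19 and X were ranked by −log10 p, and the 29829 strongest, the length of the shortest list, were kept as top peaks. Overlaps of at least 1 bp were merged across libraries, and a region was held by a library with a top peak in it. Fragments at summits and the background were solved from each peak's fold and p, which gave 100% of the peaks. Summits within 3 kb of a GENCODE M21 start site were assigned to the closest start site and others to the closest gene body. Words were searched in 300 bp of GRCm38.p6, and the last peak of 20 of 20 chromosomes ended inside it. Python 3.11.15, pandas 2.3.3, scipy 1.17.1 and pysam 0.24.0 were used, and the steps were tested on simulated data. Intervals are 95% Wilson intervals over regions and cover counting error only.

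The comparisons were descriptions with no test. The selection, the gene lists and the words were chosen with earlier results of these data known. Of 418 list entries, 417 were in the annotation. The regions named were those at genes of 6 lineage lists, the 20 with the highest lowest percentile, genes with 3 or more regions (none), those nearest the last top rank, and 5 of those in no LSK- XistΔ/Δ library. Genes picked after their values were seen are given as such. Alternatives were fewer or all peaks, ranking by fold, a cover of 50%, other distances and windows, and leaving out each library.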

Additional observations from a re-analysis of the deposited data

Results flagged for a closer look

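12 of the 356 regions went one way in LSK+ cells and the opposite way in LSK- cells: both LSK+ XistΔ/Δ and no LSK+ WT library held a top peak, and both LSK- WT and no LSK- XistΔ/Δ library did. This difference between the cell types was not tested, and the same loss in LSK- XistΔ/Δ was found in 4.75% of the other LSK- specific WT regions and in 2.50% of all regions with a top peak in both LSK- WT libraries, against 3.37% of the 356. The 5 with the highest lowest percentile were assigned to 1700025G04Rik, Cd302, 2810410L24Rik, Gm20392 and Klf13. At Klf13, a Kruppel-like factor, the intronic region (chr7:63930041-63930400) had no peak in LSK+ WT, ranked 15711 and 20640 in LSK+ XistΔ/Δ and 12870 and 25098 in LSK- WT, and ranked 32644 and 38230 in LSK- XistΔ/Δ. The other 7 were at Enthd1, Rps19-ps12, Ccdc18, Trappc3, Gm9908, C630050I24Rik and Tmeff2. All 12 kept a weaker peak in both LSK- XistΔ/Δ libraries, at ranks from 30207 to 59637.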

How the results depend on the processing

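The direction of the word contrast held in each of the 13 alternatives run on it. GATA shares of 26.1% to 37.7% stood below 53.7% to 77.4% of the other LSK- specific WT regions, and PU.1 shares of 14.4% to 23.1% stood above 5.85% to 9.83%. The number of regions depended on the settings, and the causes were not tested. With fewer top peaks (14914 a list) there were 138 regions and 34 of the reverse pattern, 71.0% were held by both LSK- XistΔ/Δ libraries and 25.4% were TSS-proximal. With all deposited peaks there were 1169 and 1, a share of 18.2% of gained and 21.4% of LSK- specific WT regions, 93.8% in both LSK- XistΔ/Δ libraries and a PU.1 share of 14.4%. Lists of unequal length by themselves favour regions absent from the shortest list in this setting. With ranking by fold there were 108 regions of the reverse pattern, 27.0% of gained regions had the pattern and 14.4% were TSS-proximal. With a cover of 50% there were 195 and 14, with 18.4% of gained and 11.3% of LSK- specific WT regions. A TSS distance of 1 kb gave 8.71%, and a window of 200 bp gave a GATA share of 26.1%. Requiring no peak of any rank in LSK+ WT, an alternative chosen after seeing the data, left 48 regions, with 85.4% in both LSK- XistΔ/Δ libraries, a GATA share of 25.0% and a PU.1 share of 14.6%.

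Leaving out 1 library gave 355 to 1740 regions, 70 to 469 of the reverse pattern, 18.1% to 52.0% of gained and 6.80% to 30.6% of LSK- specific WT regions. Shares in both LSK- XistΔ/Δ libraries ran from 63.1% to 94.1%, TSS-proximal shares from 18.4% to 26.0%, GATA shares from 27.2% to 37.7% and PU.1 shares from 18.1% to 22.5%. Without LSK+ WT replicate 1 the number was 1740, and without LSK- WT replicate 1 the share in both LSK- XistΔ/Δ libraries was 63.1%. Of 65 regions named, 64 kept the pattern whichever library was left out, which loosens the rule, but 3 kept it with fewer top peaks, 6 with all peaks, 15 with ranking by fold and 28 with a cover of 50%. No paired analysis was possible because the results are counts and shares that need a top peak in both replicates, with no test that could take a block. Depth limits absence most in LSK+ WT replicate 2, whose list is the shortest.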
